A study of Mus musculus with 16 samples.

Results

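The matrix metalloproteinases (MMPs) and their tissue inhibitors (TIMPs) were followed in mouse tail tendon fascicles, thin strands of collagen and resident cells drawn out of the tail. The 10 genes were 6 proteases (Mmp2, Mmp3, Mmp9, Mmp11, Mmp13, Mmp14) and 4 inhibitors (Timp1, Timp2, Timp3, Timp4). They were chosen by name, with earlier results of these data known. Each was found once among the 25719 gene identifiers of the count files. RNA was sequenced from 8 libraries of wild type mice and 8 libraries of knockout mice in which ScxCre was combined with floxed Vhl (ScxCre;Vhlf/f). Cre under the control of Scx, a tendon transcription factor, recombines the floxed gene in cells of the Scx lineage, while the other cells of the fascicle keep it. The labels give neither age nor sex nor treatment, and whether a wild type mouse carried the floxed allele or Cre alone is not stated. The title of the series places the comparison in the question of how HIF1α, the hypoxia-inducible factor that the VHL protein targets for degradation, acts in overloaded tendon and in tendinopathy.

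MMPs are zinc-dependent enzymes made as inactive proenzymes, which together can cleave nearly every protein of the extracellular matrix. TIMPs bind the active site of an MMP and block it, and TIMP2 also forms a complex with membrane-anchored MT1-MMP (Mmp14) in which pro-MMP2 is activated. In tendon these enzymes take part in the turnover of collagen, and a shift between proteases and inhibitors has been described in tendinopathy. The measurements below are of RNA in whole tissue. They say nothing of secretion, activation or inhibition of the enzymes, and fewer cells of a type cannot be told apart from less RNA per cell.

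Total counts ran from 10488355 to 18753254 per knockout library and from 10792900 to 16379401 per wild type library. Levels are counts scaled to a common library size (CPM), with library sizes corrected by trimmed means (TMM), given as mean ± SD over 8 libraries. The targeted gene Vhl was at 9.35 ± 1.25 CPM among knockouts and 20.5 ± 3.69 CPM among wild types (SD, n = 8), without overlap, with counts taken over the whole gene. All 10 tenocyte markers were tested (1 higher, 7 lower among knockouts, beside 25.6% and 22.7% of all tested genes). Their summed level was 83546 to 185144 CPM among knockouts and 137637 to 387474 CPM among wild types. The sum is largely type I collagen: Col1a1 and Col1a2 alone had means of 79643 and 39821 CPM among knockouts and 153493 and 107971 CPM among wild types. Knockout libraries 6, 7 and 8 and wild type library 5 stood apart in skeletal muscle RNA: the 15 markers of muscle summed to 16555 to 23672 CPM in those 3 knockout libraries and to 10559.9 CPM in wild type 5, against at most 3738 CPM in the other knockout and 2612 CPM in the rest of the wild types. Results whose call or direction changed without these 4 libraries are given both ways.

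Of the 10 genes, 8 passed the filter on low counts and 6 of them differed between genotypes, where 48.3% of all 14803 tested genes did (edgeR quasi-likelihood test, adjusted p under 0.05). Higher among knockouts were 5 (Mmp3, Mmp11, Mmp13, Mmp14 and Timp1), against 25.6% of all tested genes, and lower was 1 (Timp2), against 22.7%. The libraries of the genotypes did not overlap for 5 of the 8 tested members, against 19.4% of all tested genes: 4 lay above the wild type (10.8% of all tested) and 1 below (8.61%). Mmp2 and Timp3 did not pass. Mmp9 and Timp4 were too low to enter the test. The median log2 fold change was 1.06 over the 5 tested proteases and -0.40 over the 3 tested inhibitors, beside 0.02 over all tested genes. A gene of low level among wild types enters the test through the knockout, so these counts describe the tested genes alone. Because the members were chosen with earlier results of these data known, the shares over all tested genes are given for description only.

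**Figure D1:**
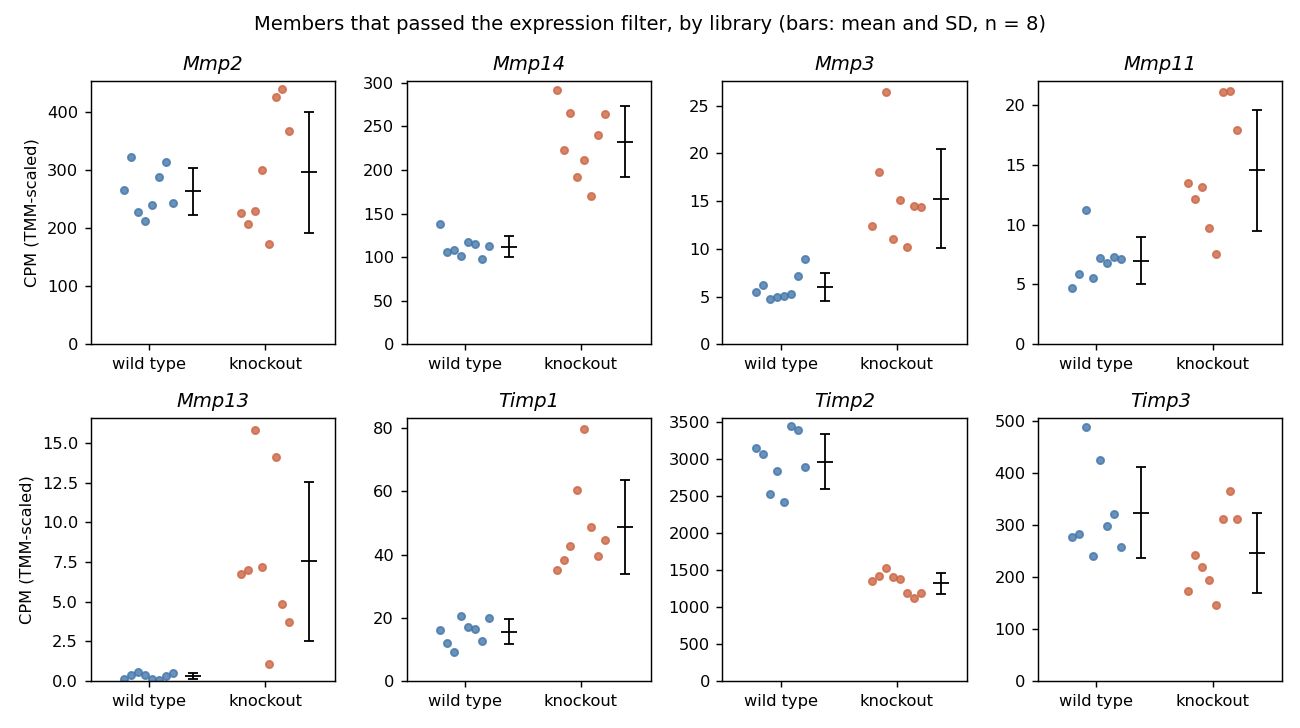
CPM (linear axes from 0) of the 8 tested members in each of 8 knockout and 8 wild type libraries (points) with mean and SD. Knockout and wild type points are separate for Mmp3, Mmp13, Mmp14, Timp1 and Timp2, and they overlap for Mmp2, Mmp11 and Timp3.

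Promoters are shown first for the 4 genes with the clearest separation upward, because their 250 bases before the transcription start differ in which short elements they hold. Sequences are those of RefSeq on GRCm38.p6, all 4 on the plus strand, written 5′ to 3′ and ending at the base before the start. Capitals mark exact matches, on either strand, to the AP-1 element TGACTCA (reverse TGAGTCA), the HIF core ACGTG or GCGTG (reverse CACGT or CACGC) and the RUNX element ACCACA (reverse TGTGGT), none of which overlapped another here. Mmp13 is at chr9:7272264-7272513, Mmp3 at chr9:7445572-7445821, Mmp14 at chr14:54431348-54431597 and Timp1 at chrX:20869916-20870165.
Mmp13: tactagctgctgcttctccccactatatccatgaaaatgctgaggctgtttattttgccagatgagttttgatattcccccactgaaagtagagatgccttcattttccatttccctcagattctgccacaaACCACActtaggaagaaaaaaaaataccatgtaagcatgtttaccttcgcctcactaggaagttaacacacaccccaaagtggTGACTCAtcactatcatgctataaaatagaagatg
Mmp3: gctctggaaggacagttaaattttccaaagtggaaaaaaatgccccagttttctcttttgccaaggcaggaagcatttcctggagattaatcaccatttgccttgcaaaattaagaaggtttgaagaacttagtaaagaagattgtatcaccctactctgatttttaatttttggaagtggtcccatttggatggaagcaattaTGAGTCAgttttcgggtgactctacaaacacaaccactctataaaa
Mmp14: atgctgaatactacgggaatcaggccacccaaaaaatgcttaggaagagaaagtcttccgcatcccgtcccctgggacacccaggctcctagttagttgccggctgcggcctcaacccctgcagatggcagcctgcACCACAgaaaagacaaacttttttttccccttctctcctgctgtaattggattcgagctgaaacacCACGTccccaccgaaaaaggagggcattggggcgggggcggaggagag
Timp1: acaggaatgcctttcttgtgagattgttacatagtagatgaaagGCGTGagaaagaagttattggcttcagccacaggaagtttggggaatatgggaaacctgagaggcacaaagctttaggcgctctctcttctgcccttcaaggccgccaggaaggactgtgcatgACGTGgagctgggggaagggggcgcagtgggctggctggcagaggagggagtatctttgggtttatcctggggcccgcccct
The AP-1 element lies at -35 to -29 from the start in Mmp13 and at -46 to -40 in Mmp3, and 4.46% of 32851 promoter windows of this length hold it. Mmp14 holds a HIF core at -48 to -44 and Timp1 holds ACGTG at -82 to -78 and GCGTG at -206 to -202. ACGTG occurs in 16.6% of the windows and GCGTG in 28.2%. The RUNX element lies at -118 to -113 in Mmp13 and at -114 to -109 in Mmp14 (14.0% of windows). The ETS element AGGAAG, left in lower case, occurs in all 4 promoters and in 29.5% of windows. Of the other 4 members with an entry, Timp2 and Timp3 hold GCGTG and Mmp11 and Timp4 hold none of the capitalised elements. Among the same 4, Timp3 (-204 to -199) and Timp4 (-111 to -106) hold the ETS element, and Mmp11 and Timp2 do not. The ETS element thus does not set the 4 printed promoters apart. A match to these letters describes the sequence and is not a measured binding site.

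Mmp13 encodes collagenase-3, the chief collagenase of mouse matrix, which cuts the triple helix of fibrillar collagen. In the knockout its lowest, median and highest levels were 1.04, 6.85 and 15.8 CPM, and among wild types 0.0844, 0.324 and 0.546 CPM. The groups did not overlap, with knockout 3 and 6 the highest libraries and knockout 5 the lowest knockout library. The total over libraries was 882 counts among knockouts and 28 among wild types, where 4 of 8 libraries held more than 3 counts. The mean rose from 0.293 ± 0.180 to 7.55 ± 5.02 CPM (SD, n = 8), or by 4.60 ± 0.540 on the log2 scale (fitted value ± SE; adjusted p = 1.80e-06 by edgeR's quasi-likelihood F test, Benjamini-Hochberg adjusted). By size of increase it ranked 101 of the 14803 tested genes, and genes that the filter removed have no rank. The wild type libraries held 1 to 7 counts each, near the detection floor of 3. Both the size of the increase and the rank therefore rest on few wild type counts. Of other cell types that make collagenase-3, osteoblast markers were tested for 2 of 10 genes (1 lower, 1 not called; sums 29.5 to 150.4 CPM among knockouts, 47.8 to 145 CPM among wild types). Of the untested osteoblast genes Dmp1 held 54 counts among knockouts and 0 among wild types, Ibsp 12 and 3, Sp7 11 and 5, Bglap 14 and 10, Bglap2 7 and 6, Alpl 17 and 35, Mepe 1 and 0, and Sost 2 and 5. For hypertrophic chondrocytes 3 of 6 markers were tested (1 lower, 2 not called; sums 61.7 to 179.7 and 77.2 to 177 CPM), and Ihh held 5 counts in each group. What these lists contribute to Mmp13 was not tested.

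Mmp3, stromelysin-1, degrades proteoglycans and other non-collagen matrix and activates several pro-MMPs. Its lowest, median and highest levels were 10.1, 14.4 and 26.5 CPM among knockouts and 4.76, 5.36 and 8.98 CPM among wild types. All 8 knockout libraries lay above all 8 wild type libraries, most of all knockout 3. The mean rose 2.55-fold, from 5.98 ± 1.44 to 15.2 ± 5.18 CPM, with a log2 fold change of 1.35 (SE 0.184, edgeR's quasi-likelihood F test, Benjamini-Hochberg adjusted, adjusted p = 5.98e-06).

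Mmp14, the membrane-anchored MT1-MMP, cleaves fibrillar collagen at the cell surface and activates pro-MMP2. The lowest, median and highest levels were 170.2, 232 and 292 CPM among knockouts and 97.9, 110.1 and 138 CPM among wild types. The groups did not overlap, and the spread within each was narrow. The mean rose 2.08-fold, from 112 ± 12.4 to 233 ± 41.0 CPM, or by 1.05 ± 0.102 on the log2 scale (fitted value ± SE; edgeR's quasi-likelihood F test, Benjamini-Hochberg adjusted, adjusted p = 5.70e-08).

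Mmp11, stromelysin-3, is activated inside the cell by furin-type convertases. Levels were 7.51, 13.3 and 21.2 CPM (lowest, median, highest) among knockouts and 4.71, 6.99 and 11.2 CPM among wild types. The groups overlapped: wild type 3, the highest of its group, lay above knockout 4 and 5, and the other 6 knockout libraries lay above it. The log2 fold change was 1.06 (SE 0.212, edgeR's quasi-likelihood F test, Benjamini-Hochberg adjusted, adjusted p = 4.24e-04). The 3 knockout libraries high in muscle RNA held 17.9 to 21.2 CPM and the other 5 held 7.51 to 13.5 CPM. Wild type 5, also high in muscle RNA, held 7.20 CPM, within the 4.71 to 11.2 CPM of the other wild types. Without the 4 libraries high in muscle RNA, left out after the data were seen, the log2 fold change was 0.68 (adjusted p = 0.0104, same test). In the GENCODE M21 annotation 155 bases (5.58%) of its exons overlap Chchd10 on the opposite strand, so a share of its counts is uncertain. Chchd10 was at 4.38 CPM among knockouts and 1.21 CPM among wild types and did not pass the test (adjusted p = 0.0691, edgeR's quasi-likelihood F test, Benjamini-Hochberg adjusted).

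Mmp2, gelatinase A, cleaves denatured collagen and is among the most abundant MMP transcripts of connective tissue. Levels were 172, 264 and 439 CPM (lowest, median, highest) among knockouts and 211, 253 and 322 CPM among wild types. The 3 knockout libraries above every wild type library were those high in muscle RNA, at 367 to 439 CPM. The other 5 knockout libraries held 172 to 299.6 CPM, and 2 of them lay below every wild type library. Wild type 5, also high in muscle RNA, held 240 CPM, within the 211 to 322 CPM of the other wild types. The means were 296 ± 104 and 264 ± 40.5 CPM, and no difference passed the test (log2 fold change 0.17, SE 0.179, edgeR's quasi-likelihood F test, Benjamini-Hochberg adjusted, adjusted p = 0.468). Fitted together with the muscle score, the log2 fold change was -0.04 (adjusted p = 0.897), without the 4 libraries high in muscle it was -0.24 (adjusted p = 0.180), and with total counts as library sizes it was 0.48 (adjusted p = 0.0288), all with edgeR. The direction of Mmp2 thus changed with the setting. Endothelial markers summed to 60.7 to 601 CPM among knockouts and 42.2 to 63.9 CPM among wild types (7 of 9 tested of 12 listed higher), and mural markers to 365 to 2041 and 357 to 511 CPM (5 of 8 tested of 10 listed higher, 1 lower); their part in the Mmp2, Mmp11 and Timp3 values was not tested.

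Mmp9, gelatinase B, is known from neutrophils, macrophages and osteoclasts. It was counted 80 times among knockouts, between 2 and 26 times in each library, and 3 times among wild types, where 5 libraries had no count. Every knockout library lay above every wild type library in CPM, led by knockout 4 and 8. The ratio of summed counts scaled by library size was 20.3 (exact binomial 95% interval 6.71 to 101, counting error only). Without the filter on low counts edgeR gave an adjusted p of 5.11e-04, quasi-likelihood F test, Benjamini-Hochberg adjusted. The neutrophil list held no tested gene of 10, summed to 0.567 to 5.21 CPM among knockouts and 0.483 to 0.960 CPM among wild types. Its counts among knockouts and wild types were 51 and 5 for S100a8, 31 and 1 for S100a9, 28 and 1 for Ltf, 20 and 2 for Mpo, 57 and 21 for Ngp, 34 and 27 for Camp, 11 and 1 for Retnlg, 9 and 2 for Cxcr2 and 4 and 2 for Elane, and Ly6g was at 0 in every library. Macrophage markers were tested for 10 of 10 genes (4 higher, 6 not called; sums 1362 to 2049 and 1245 to 1820 CPM). Of 8 osteoclast markers 4 were tested (1 higher, 1 lower, with sums of 278 to 353 and 341 to 522 CPM). The lower gene was Ctsk, also on the collagen uptake list, at 210 ± 33.0 CPM among knockouts and 343 ± 61.5 CPM among wild types. The sums thus rest largely on Ctsk and say little of the other listed markers, the higher gene among them. Of the untested genes, Calcr and Oscar held at most 3 counts in any library. What these lists contribute to Mmp9 was not tested.

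The inhibitors moved in opposite directions. Timp2, the inhibitor that forms the activation complex with MT1-MMP, was the most abundant of the 10 genes and ranked 27 by mean CPM among the tested genes. Its lowest, median and highest levels were 1117, 1362 and 1527 CPM among knockouts and 2413, 2973 and 3436 CPM among wild types. Every knockout library lay below every wild type library. The mean fell from 2959 ± 372 to 1319 ± 141 CPM, 2.24-fold lower, with a log2 fold change of -1.17 (SE 0.0957, edgeR's quasi-likelihood F test, Benjamini-Hochberg adjusted, adjusted p = 5.68e-09). It was somewhat lower still in the 3 knockout libraries high in muscle RNA (1117 to 1189 CPM) than in the other 5 (1343 to 1527 CPM).

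Timp1, a secreted inhibitor that acts poorly on membrane-anchored MMPs, rose. Levels were 35.0, 43.6 and 79.8 CPM (lowest, median, highest) among knockouts and 9.21, 16.3 and 20.6 CPM among wild types. The groups did not overlap, and knockout 5 was the highest library, followed by knockout 4. The mean rose 3.14-fold, from 15.5 ± 3.96 to 48.7 ± 14.8 CPM, with a log2 fold change of 1.65 (SE 0.187, edgeR's quasi-likelihood F test, Benjamini-Hochberg adjusted, adjusted p = 9.52e-07). Timp1 lies within the span of Syn1 on the opposite strand, with 0 shared exon bases.

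Timp3, the inhibitor bound to the matrix that also blocks ADAM and ADAMTS enzymes, had levels of 146, 231 and 365 CPM (lowest, median, highest) among knockouts and 239.7, 290.3 and 489.5 CPM among wild types. The groups overlapped: 4 knockout libraries lay below every wild type library, and wild type 3 and 5 were the highest. The log2 fold change of -0.40 (SE 0.190) did not pass (edgeR's quasi-likelihood F test, Benjamini-Hochberg adjusted, adjusted p = 0.0939). It passed when the muscle score was fitted too (-0.69, adjusted p = 0.00169), without the 4 libraries high in muscle RNA (-0.66, adjusted p = 0.00494) and without knockout 7 (-0.50, adjusted p = 0.0328), by the same test. Timp3 shares 1733 exon bases (21.3% of its exons) with Syn3 on the opposite strand. Syn3 had 36.8 to 42.7 counts per 100 Timp3 counts in each of the 16 libraries, so the counts of both genes are uncertain.

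Timp4, best known from heart and muscle, was counted 150 times among knockouts and 20 times among wild types and was not tested. The knockout libraries held 1 to 42 counts and the wild type libraries 0 to 6, and the groups overlapped. Counts of 13 to 42 in 5 knockout libraries (knockout 4 to 8) stood against 1 or 2 in the other 3. The 3 knockout libraries high in muscle RNA held 1.10 to 2.13 CPM, and knockout 4, not among them, was the highest at 2.73 CPM. What muscle contributes to Timp4 was not tested. The ratio of summed counts was 5.72 (exact binomial 95% interval 3.57 to 9.63, counting error only). Without the filter on low counts, edgeR's quasi-likelihood F test gave an adjusted p of 0.0174 and the Wald test of DESeq2 gave 0.00515.

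**Figure D2:**
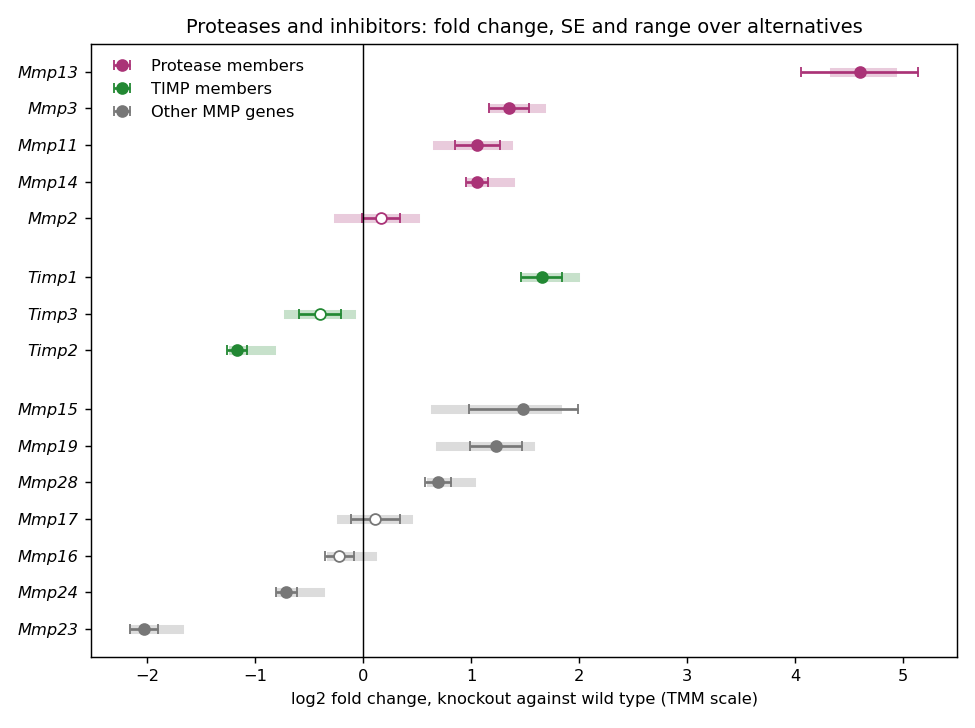
Log2 fold change (knockout minus wild type, TMM scale) of the 5 tested proteases, 3 tested TIMPs and 7 other tested MMP genes, with standard error bars and, as pale bars, the range over the alternatives; filled points passed an adjusted p of 0.05. Timp2 lies at -1.17 and Mmp13 at 4.60, and the pale bar of Mmp2 spans 0.

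Per kilobase of exon, which allows genes to be compared, Timp2 led in both groups, at 339 ± 36.2 CPM per kb among knockouts and 759.6 ± 95.4 among wild types. Mmp2 followed among wild types at 78.2 ± 12.0 and among knockouts at 87.7 ± 30.7 CPM per kb, a difference within the spread. In the wild type Timp3 stood next at 39.8 ± 10.7, then Mmp14 at 18.8 ± 2.08 and Timp1 at 17.5 ± 4.46, values that do not separate Mmp14 from Timp1. In the knockout Timp1 stood at 54.8 ± 16.7, Mmp14 at 39.0 ± 6.88 and Timp3 at 30.2 ± 9.43, with overlapping spreads. Mmp14 lay below Timp3 in knockout 6 and 7, at 74.6 and 89.9 per 100 Timp3 per kb. Mmp3, Mmp11 and Mmp13 were at 8.47 ± 2.88, 5.23 ± 1.82 and 2.82 ± 1.88 among knockouts, against 3.32 ± 0.802, 2.51 ± 0.704 and 0.110 ± 0.0672 among wild types. Mmp9 and Timp4 stood lowest among knockouts.

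The composition of each class differed. Mmp2 made up 75.7% ± 3.12 of the protease total per kb among wild types and 59.8% ± 9.36 among knockouts, with no overlap. Mmp14 made up 18.5% ± 2.71 and 28.3% ± 7.49, and these shares overlapped. Of the TIMP total per kb, Timp2 made up 92.8% ± 1.86 among wild types and 79.8% ± 3.70 among knockouts, and Timp1 2.16% ± 0.623 and 12.9% ± 3.28, each without overlap.

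The proteases summed to 566 ± 105 CPM among knockouts (408 to 721) and 389 ± 40.4 CPM among wild types (324 to 440.1), and these sums overlapped. The TIMPs summed to 1615 ± 92.8 CPM among knockouts (1524 to 1789) and 3299 ± 325 CPM among wild types (2856 to 3751), without overlap. Within a library, TIMP counts stood at 2.96 ± 0.653 times protease counts among knockouts (2.12 to 3.94) and 8.51 ± 0.642 times among wild types (7.63 to 9.56). Every knockout library was below every wild type library, and no p is given because the genes were named for this comparison. Divided by exon length, the ratio was 3.12 ± 0.898 among knockouts and 7.97 ± 0.709 among wild types. On the log2 scale the protease to TIMP balance differed by 1.55, and by 1.40 when counts were divided by exon length. The mean of log2 CPM over the members gave 1.17 with overlapping groups, and the sums without Mmp2 and Timp2 gave 1.30. Without the 4 libraries high in muscle RNA the difference was 1.37. The protease sum was 641 to 721 CPM in the 3 such knockout libraries and 408 to 551 CPM in the other 5.

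The genes of the complex that activates pro-MMP2 also stood in another ratio. The ratios restate the levels given above for each gene and are not a separate result. Per 100 Timp2 counts per kb, Mmp14 stood at 11.6 ± 2.33 among knockouts (8.94 to 14.6) and 2.51 ± 0.423 among wild types (1.89 to 3.19). Mmp2 stood at 26.9 ± 12.2 and 10.3 ± 1.13 on the same basis, both without overlap. The 3 knockout libraries high in muscle RNA held 35.8 to 45.5 Mmp2 per 100 Timp2, and the other 5 held 14.4 to 24.6, still above the wild type maximum of 12.2. In contrast, Mmp3 per 100 Timp1 ran from 8.96 to 30.6 among knockouts and from 11.9 to 28.0 among wild types, so the libraries overlapped.

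**Figure D3:**
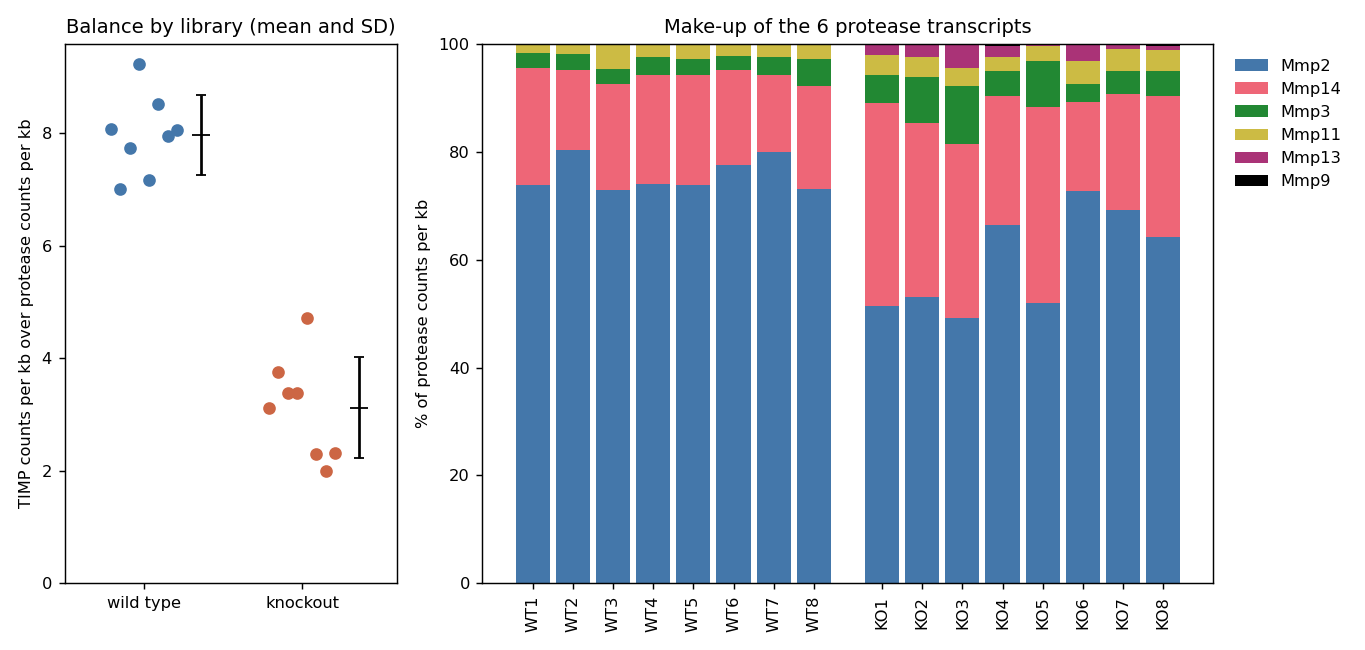
Left, TIMP counts per kb divided by protease counts per kb in each library (points) with mean and SD of 8 libraries; right, the percentage of protease counts per kb that each of the 6 proteases makes up in each library. The ratio is 2.001 to 4.71 in knockout libraries and 7.01 to 9.22 in wild type libraries, and Mmp2 makes up 49.1% to 72.8% and 73.0% to 80.3%.

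**Figure D4:**
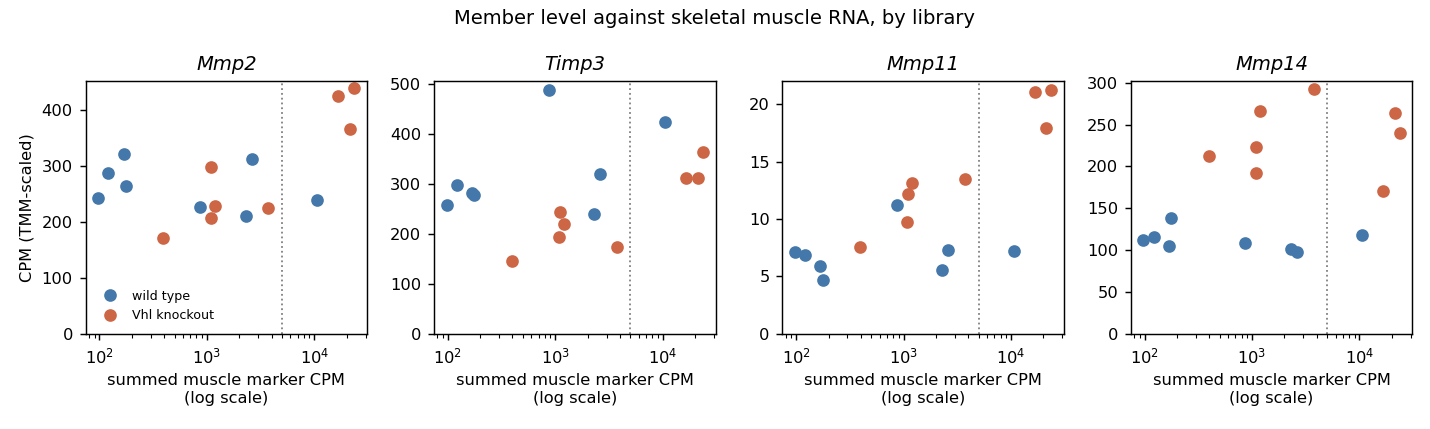
Level of Mmp2, Timp3, Mmp11 and Mmp14 (CPM, linear axis) against the summed skeletal muscle markers (CPM, log axis) in each library, with a dotted line at 5000 CPM. The 3 knockout libraries right of the line hold the highest knockout levels of Mmp2, Timp3 and Mmp11. Their Mmp14 levels (170.2 to 264 CPM) lie among those of the other knockout libraries or below them. Wild type 5, also right of the line, lies within the range of the other wild types for each gene shown.

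Mmp13 and Mmp3 lie in a group of 10 MMP genes on chromosome 9, with 0 other listed genes between its ends, in the order Mmp13, Mmp12, Mmp1b, Mmp3, Mmp1a, Mmp10, Mmp8, Mmp27, Mmp20 and Mmp7. The macrophage elastase gene Mmp12 held 238 counts among knockouts and 8 among wild types, a ratio of 22.7 (exact binomial 95% interval 11.3 to 53.2). Mmp10, stromelysin-2, held 37 counts over all 8 knockout libraries, 1 to 12 in each, and 0 among wild types. Its ratio thus has only a lower limit, 7.27 by the exact binomial 95% interval. Mmp8, neutrophil collagenase, held 20 and 4 counts (ratio 3.81, interval 1.28 to 15.3). These 3 genes were singled out after their values were seen, were not tested under the filter, and reached adjusted p-values of 5.60e-07, 0.00435 and 0.0186 without it (edgeR's quasi-likelihood F test, Benjamini-Hochberg adjusted). The Wald test of DESeq2 gave 9.57e-13, 1.34e-04 and 0.0628, so the call for Mmp8 was not made by both tests. Mmp27 held 5 and 11 counts, Mmp7 1 and 3, Mmp1b 2 and 0, Mmp20 1 and 0, and Mmp1a none.

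**Figure D5:**
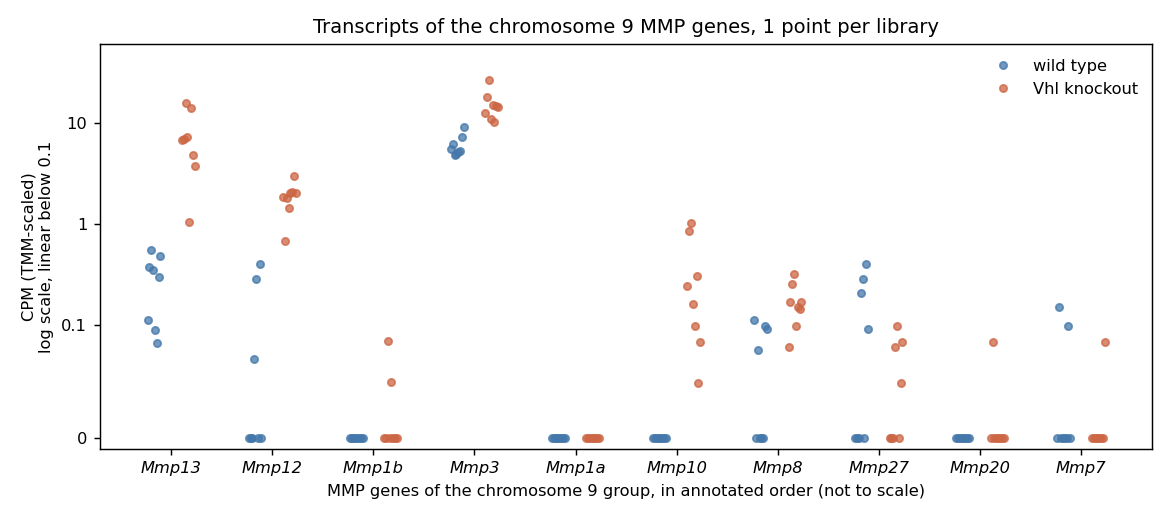
CPM (log axis, linear below 0.1) of the 10 MMP genes of the chromosome 9 group, in annotated order, with 1 point per library. Every knockout point of Mmp13, Mmp12 and Mmp3 lies above every wild type point, and Mmp1a has no count in any library.

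Of 17 other MMPs listed, 7 were tested, none of them in that group: 3 were higher, 2 lower and 2 not called, with a median log2 fold change of 0.11. For this and the lists that follow, the shares over all tested genes are 25.6% higher and 22.7% lower, with a median of 0.02. Mmp23 fell from 82.4 ± 17.8 to 20.2 ± 1.95 CPM (log2 fold change -2.02, adjusted p = 1.99e-10, edgeR's quasi-likelihood F test, Benjamini-Hochberg adjusted). Mmp28, epilysin, rose from 15.8 ± 2.32 to 25.7 ± 5.32 CPM (0.69, adjusted p = 6.71e-05, same edgeR test), and Mmp19 rose by 1.23 (adjusted p = 4.42e-04). Without the libraries high in muscle RNA the Mmp19 value was 0.71 (adjusted p = 0.00153). Mmp24, membrane-anchored MT5-MMP, fell by 0.71 on the log2 scale (adjusted p = 5.20e-06). Mmp15 was higher by 1.48 (adjusted p = 0.0219), a call lost with the muscle covariate (0.66, adjusted p = 0.178), with voom (1.25, adjusted p = 0.0668), with the replicate block (1.24, adjusted p = 0.0579) and without knockout 7 (1.20, adjusted p = 0.0547), all from edgeR or limma.

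Of 15 listed activators of proenzymes and their inhibitors, 10 were tested, 7 higher and 2 lower, with a median of 0.45. The urokinase receptor Plaur rose from 8.93 ± 2.13 to 22.2 ± 3.67 CPM (by 1.31 on the log2 scale, adjusted p = 1.95e-07, edgeR's quasi-likelihood F test, Benjamini-Hochberg adjusted). Plat, tissue plasminogen activator, rose by 0.79, and urokinase itself, Plau, fell by 0.81. Serpine2 rose by 0.68, and Hpn fell by 1.22.

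Of 15 other inhibitors and partners, 12 were tested, 4 higher and 6 lower, with a median of -0.26. A2m, a broad plasma protease inhibitor, reached 153 ± 26.2 CPM among knockouts, where the wild type libraries held 4 counts in all. Basigin (Bsg), an inducer of MMPs, rose from 194 ± 25.1 to 1299 ± 297 CPM (2.74, adjusted p = 3.71e-12, edgeR's quasi-likelihood F test, Benjamini-Hochberg adjusted), and Cd44 rose by 1.13. Reck, a membrane-bound MMP inhibitor, fell from 121 ± 13.7 to 67.4 ± 7.59 CPM (-0.85, adjusted p = 3.13e-08, same edgeR test) without overlap. Spock2, a proteoglycan of the testican family, fell from 226 ± 49.3 to 12.6 ± 1.49 CPM (-4.17), and Cldn1 fell by 1.68. Tfpi2 was higher by 1.00 and lost the call with the muscle covariate (0.72, adjusted p = 0.0862, edgeR) and without the libraries high in muscle RNA (0.63, adjusted p = 0.136). Lrp1, an endocytic clearance receptor, was lower by 0.41 and lost the call with total counts (-0.10, adjusted p = 0.453, edgeR).

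The list of collagen uptake and lysosomal proteases gave 5 higher and 5 lower of 14 tested, with a median of -0.07. Cathepsin L (Ctsl) fell from 524 ± 95.2 to 176 ± 26.2 CPM (-1.57, adjusted p = 1.82e-09, edgeR's quasi-likelihood F test, Benjamini-Hochberg adjusted). Fap fell by 0.85, Itga2 by 0.84 and the collagen receptor Ddr2 by 0.80. Dpp4 rose by 0.65, Ctss (also on the macrophage list) by 0.49 and Lgmn by 0.43. Itga11 was higher by 0.65, a call lost without the libraries high in muscle RNA (0.39, adjusted p = 0.142, edgeR).

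Among transcription factors known to act at MMP promoters, 12 of 20 tested rose and 8 were not called, with a median of 0.48, beside 25.6% higher over all tested genes. Fosl2, an AP-1 subunit, rose from 68.4 ± 11.7 to 189.7 ± 16.4 CPM (1.47, adjusted p = 1.13e-10, edgeR's quasi-likelihood F test, Benjamini-Hochberg adjusted). Runx2 rose from 4.29 ± 1.26 to 13.1 ± 4.03 CPM (1.61, adjusted p = 1.78e-06, same edgeR test). Atf3 rose by 1.39 and Ets2 by 0.95, and the groups did not overlap for any of these 4 (10.8% of all tested genes lay above the wild type in this way). Of 16 cytokine inducers 11 were tested, 5 higher and 3 lower, with a median of 0.38. Lif rose by 1.54, Tnf by 1.23, Pthlh by 1.17 and Pdgfb by 1.45. Without the libraries high in muscle RNA, Pdgfb was higher by 0.80 (adjusted p = 0.00214, edgeR), and with the muscle covariate Pthlh was higher by 0.77 (adjusted p = 0.0271). Pdgfa, Tgfb2 and Tgfb3 were lower by 0.52, 0.41 and 0.23 on the log2 scale, calls that total counts ended (-0.20, -0.10 and 0.08). Tgfb2 also lost the call without the libraries high in muscle RNA (-0.33, adjusted p = 0.0913, edgeR). Tgfb3 also lost it with the muscle covariate (adjusted p = 0.112) and without knockout 1, 4 or 5 or wild type 2, 6, 7 or 8 (adjusted p = 0.0516 to 0.0805, edgeR). Over the 6 lists, 54 of 74 tested genes (73.0%) passed, 36 higher and 18 lower, beside 48.3% of all tested genes. The lists were chosen with results of these data known.

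Transcripts of collagens and of aggrecan, substrates of these enzymes, also differed. Col1a1 fell from 153493 ± 45287 to 79643 ± 24141 CPM (log2 fold change -0.95, adjusted p = 0.00170, edgeR's quasi-likelihood F test, Benjamini-Hochberg adjusted) and Col1a2 fell by 1.44 (adjusted p = 6.01e-06), with overlapping libraries for both. Col3a1 rose by 1.89 and Acan, the aggrecan core protein, by 3.34 (adjusted p = 1.72e-10 and 2.42e-06, same edgeR test), without overlap.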

How the data were processed

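Whole-tissue RNA of 16 libraries was compared by the genotype in their titles. Per the file headers, the deposited files hold matched counts per gene. Per the submitters' processing notes, featureCounts and kallisto and the build GRCm39 were used, with no role stated; the strand setting is not given in the sources used here. Of 25719 identifiers, 25614 were matched to a symbol. Chromosomes, exon lengths and overlaps came from GENCODE M21 (GRCm38), promoters from RefSeq on GRCm38.p6. Here 8 of 10 members matched a promoter entry, and Mmp2 and Mmp9 did not. No coordinates were converted.

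The test was the two-sided robust quasi-likelihood F test of edgeR 4.0.16 (R 4.3.3) with TMM, the default expression filter and genotype as the only term, with Benjamini-Hochberg adjustment over 14803 genes; 10916 were not tested. An adjusted p under 0.05 was a call. Each SE of a log2 fold change is its absolute value divided by the square root of the F statistic. Log2 CPM used a prior count of 2. A count of 3, 0.145 to 0.336 CPM, was the floor of detection, and intervals and floors cover counting error only. The labels do not say that libraries came from separate animals, so p-values measure only the spread between these libraries. No pair was a repeat of 1 library: the chi-square statistic was at least 6.56 per degree of freedom over 14096 genes.

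Named were the members, Vhl, 4 substrates, the 4 largest and 4 smallest called fold changes of each list (1 gene that this rule gave is counted in its list and not reported here), and the 3 genes closest in profile to each tested member. Members and lists were chosen with earlier results of these data known. Marker lists were skeletal muscle, endothelial, mural, macrophage, neutrophil, osteoclast, osteoblast, chondrocyte, hypertrophic chondrocyte, keratinocyte, adipocyte, Schwann cell, erythroid and tenocyte. Alternatives were other scalings and filters, DESeq2 1.42.0, limma 3.58.1 voom, a replicate block, muscle or Y-linked level as a covariate, each library left out, and, added after seeing the data, leaving out the 4 libraries above 5000 summed muscle-marker CPM.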

Additional observations from a re-analysis of the deposited data

How the results depend on the processing

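Mmp3, Mmp11, Mmp13, Mmp14, Timp1 and Timp2 kept direction and call in each of 27 alternatives, with log2 fold changes of 1.19 to 1.64, 0.68 to 1.35, 4.36 to 4.89, 1.00 to 1.36, 1.51 to 1.96 and -1.20 to -0.86. Between 6 and 8 members were called. The 8 came without a filter and with DESeq2, where Mmp9 and Timp4 were tested. Called genes of all tested ranged from 6101 without the 4 libraries high in muscle RNA to 9685 with total counts, where 85.4% of calls were higher among knockouts against 53.0% with TMM and the median moved from 0.02 to 0.32. Called genes of the other lists ranged from 49 to 66.

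The sign turned for Mmp2 with the muscle covariate (-0.038) and without the libraries high in muscle RNA (-0.24), for Mmp16 (0.084) and Tgfb3 (0.082) with total counts, and for Mmp17 with the muscle covariate (-0.12), without those libraries (-0.21) and without knockout replicate 7 (leave-one-out range -0.014 to 0.21). None of Mmp2, Mmp16 and Mmp17 passed the test on the TMM scale, and the cause was not tested. The protease to TIMP balance moved from 1.55 to 1.17 with the mean of log2 CPM and to 1.30 without Mmp2 and Timp2, where the construction gives rare members more weight; leaving out each library gave 1.49 to 1.62.

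The replicate numbers did not pair the libraries: same-numbered libraries correlated between -0.397 and 0.394, 3 of 8 over 0.1, and 1 of 8 knockout libraries was closest to its own number. With the replicate block 7010 genes and 6 members were called. Depth limits Mmp9, Timp4, Mmp8, Mmp10 and Mmp12, which rest on few counts.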

Other observations

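Marker lists of other cells of the tail were read in the same fit. Erythroid markers were tested for 5 of 7 genes and all 5 were higher among knockouts (sums 77.8 to 563 CPM against 15.1 to 50.8 CPM). Schwann cell markers gave 3 higher and 4 not called of 7 tested (295 to 545 and 416 to 480.2 CPM). Adipocyte markers gave 2 higher of 2 tested (1.45 to 69.6 and 0.676 to 2.59 CPM), keratinocyte markers 1 higher and 3 lower of 5 tested (29.3 to 35.9 and 32.5 to 65.7 CPM). Chondrocyte markers gave 3 higher and 3 lower of 8 tested, and their sum was lower in every knockout library (468 to 1089 CPM) than in any wild type library (2270.1 to 3672 CPM). A sum is set by its most abundant genes, and this list was split, with a median log2 fold change of -0.16. Without overlap, 3 genes lay above the wild type and 3 below (10.8% and 8.61% of all tested genes). Acan, on this list, rose from 6.24 ± 3.81 to 62.6 ± 26.1 CPM. Of the 15 muscle markers 1 was higher and 14 were not called, with a median log2 fold change of 1.70 beside 0.02 over all tested genes.

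The profiles closest to each tested member were found over 16 libraries among 13416 genes, as the smallest root-mean-square gap between log2 CPM values centred within genotype and scaled to unit SD. Because genotype was removed, these genes vary alike among libraries of 1 genotype, and those libraries differ in depth and muscle content. For Mmp2 they were Eepd1 (0.393), Plcb4 (0.439) and Fam13a (0.440). For Mmp3 they were Hpgds (0.629), Tmem116 (0.664) and R3hcc1l (0.688), the widest gaps. Mmp11 was closest to Acadl (0.357), Stard13 (0.361) and Slc44a2 (0.370), and Mmp14 to Scarf2 (0.487), Wiz (0.492) and Gga1 (0.512). Timp1 was closest to Eif4a3 (0.275), Psmc3 (0.344) and Atp6v0c (0.384), and Timp2 to Itgb5 (0.388), Capn5 (0.437) and Os9 (0.477). For Timp3 the closest was Syn3 (0.104), which shares exon bases with it, then Slc44a2 (0.433) and Atp8b1 (0.437). Mmp13 was below the level at which profiles were ranked.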
